A study of Homo sapiens with 18 samples.

Results

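Tubulins are the proteins from which microtubules are built, and the 10 genes described here encode 4 alpha-tubulins (TUBA1A, TUBA1B, TUBA1C, TUBA4A) and 6 beta-tubulins (TUBB, TUBB2A, TUBB2B, TUBB3, TUBB4B, TUBB6). They were taken by name, by symbol in the table of the DU145 line and by Ensembl gene identifier in the tables of the C4-2B and 22Rv1 lines, and all 10 were found in each table, out of 37256 genes for DU145, 25716 for 22Rv1 and 22360 for C4-2B. The study sequenced total RNA from 18 libraries of human prostate cancer cell lines, with 3 EMD knockdown and 3 control libraries in each of C4-2B, 22Rv1 and DU145. C4-2B is a castration-resistant derivative of LNCaP, 22Rv1 was derived from a serially passaged xenograft, and DU145 came from a brain metastasis. EMD encodes emerin, an inner nuclear membrane protein that binds lamins.

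Per the labels' protocols, knockdown cells of the 3 lines received siRNA against EMD and control cells received scrambled siRNA, both with a lipid reagent that was washed out after 24 h. C4-2B and 22Rv1 cells were grown in RPMI-1640 and DU145 cells in DMEM. For DU145, knockdown libraries are named shEMD, a prefix that usually marks a hairpin vector, so the reagent used in that line is uncertain. The interval between transfection and harvest is not given in the sources used here. The libraries are called triplicates without a statement that they were separate cultures, so the p-values measure the spread between these libraries, which may be technical. Line, batch label, table and, for DU145, medium coincide and cannot be told apart.

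Alpha- and beta-tubulin fold with the help of the CCT chaperonin and a set of cofactors, pair into heterodimers and add to the ends of microtubules, which form the mitotic spindle and the tracks for transport in the cytoplasm. Vertebrate genomes carry several genes for each subunit: TUBA1B, TUBA1C, TUBB and TUBB4B are expressed in most dividing cells, whereas TUBA1A, TUBB2A, TUBB2B and TUBB3 are best known from neurons. Cells also tune tubulin mRNA to the amount of free dimer: when dimer is in excess, TTC5 recognises the first residues of the nascent tubulin chain on the ribosome and the mRNA is degraded, with SCAPER and the CCR4-NOT deadenylase as partners.

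The start of the coding sequence is shown because it encodes the residues that this feedback reads. The first 12 coding bases of the annotated principal transcripts (GENCODE 29) fall into 6 forms, printed in lower case throughout.
TUBA1A, TUBA1B and TUBA1C: atgcgtgagtgc
TUBA4A: atgcgtgaatgc
TUBB and TUBB4B: atgagggaaatc
TUBB2A: atgcgcgagatc
TUBB2B: atgcgtgagatc
TUBB3 and TUBB6: atgagggagatc
The pair TUBB and TUBB4B share these bases, and so do TUBA1A, TUBA1B and TUBA1C.

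The end of the coding sequence is shown for TUBB2A and TUBB2B, the pair with the highest coding identity of those compared. The last 60 coding bases, stop codon included, follow, and capitals mark bases of TUBB2B that differ from TUBB2A in an alignment of the whole coding sequences.
TUBB2A: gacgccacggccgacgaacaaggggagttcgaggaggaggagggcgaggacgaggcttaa
TUBB2B: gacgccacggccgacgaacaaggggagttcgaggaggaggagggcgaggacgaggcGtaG
TUBB2B carried 2 differences from TUBB2A here. Over the whole coding sequence, identity was 98.1% for TUBB2A with TUBB2B, 97.2% for TUBA1A with TUBA1B, 96.8% for TUBA1B with TUBA1C and 95.9% for TUBA1A with TUBA1C. Of all 100-base stretches of the principal transcript, 56.4% in TUBB2A and 46.2% in TUBB2B occurred also in a transcript of another gene with a tubulin name, as did 37.2% in TUBA1B, 26.6% in TUBA1A and 11.5% in TUBA1C. For the other 5 members this share was between 0 in TUBB6 and 5.15% in TUBB3. RSEM divides reads from such stretches between the copies by estimation, so the values within TUBA1A, TUBA1B and TUBA1C and within TUBB2A and TUBB2B carry that uncertainty, and summed values are given beside them below.

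Promoters are shown for TUBB4B and TUBA1C, which carry both motifs searched, and for TUBA1B, the member that fell most in C4-2B; these 3 were chosen after the values were seen. RefSeq windows of 300 bases (250 before to 50 after an annotated start, GRCh38.p14) were at hand for all 10 members, 15 windows in all. Matches to CCAAT and to TTTGAA, the cell cycle homology element, were sought on both strands and stand in capitals.
TUBB4B, chr9:137241037-137241336, plus strand: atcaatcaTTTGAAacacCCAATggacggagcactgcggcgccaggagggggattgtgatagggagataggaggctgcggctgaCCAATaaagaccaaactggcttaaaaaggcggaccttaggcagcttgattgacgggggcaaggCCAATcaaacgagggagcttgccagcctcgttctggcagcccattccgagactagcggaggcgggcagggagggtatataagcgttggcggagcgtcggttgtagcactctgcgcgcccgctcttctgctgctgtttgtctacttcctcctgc
TUBA1C, chr12:49264832-49265131, plus strand: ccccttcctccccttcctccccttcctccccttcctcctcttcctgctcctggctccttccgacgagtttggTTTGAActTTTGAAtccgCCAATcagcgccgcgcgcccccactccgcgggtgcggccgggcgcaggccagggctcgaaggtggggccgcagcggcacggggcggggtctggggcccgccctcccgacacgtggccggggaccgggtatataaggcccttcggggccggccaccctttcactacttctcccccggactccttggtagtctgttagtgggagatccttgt
TUBA1B, chr12:49131346-49131645, minus strand: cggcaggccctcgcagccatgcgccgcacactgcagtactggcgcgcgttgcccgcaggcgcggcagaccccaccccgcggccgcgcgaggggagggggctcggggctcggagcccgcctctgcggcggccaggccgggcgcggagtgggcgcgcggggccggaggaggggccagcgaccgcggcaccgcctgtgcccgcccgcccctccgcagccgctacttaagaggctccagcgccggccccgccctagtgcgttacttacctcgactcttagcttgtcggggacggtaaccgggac
CCAAT stood in 9 of the 15 windows, from 7 members, and TTTGAA in 4 windows, from TUBA1C and TUBB4B. The TUBA1C windows chr12:49227676-49227975 and chr12:49227769-49228068, not printed, overlap and hold the same CCAAT match. Windows of a gene are therefore not independent, and both motifs in 1 window came from 2 members only. The TUBB4B window held 3 matches to CCAAT and 1 to TTTGAA, the TUBA1C window 1 and 2, and the TUBA1B window 0 of either. Of 34796 RefSeq promoter windows of this length, 34.6% held CCAAT, 15.2% held TTTGAA and 5.93% held both. A match is a run of letters and not a measured binding site.

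Sequencing depth was 14722733 to 17488863 reads in C4-2B knockdown and 15530197 to 25112148 in C4-2B control libraries, 16795129 to 25441159 in 22Rv1 knockdown and 15602874 to 30788078 in 22Rv1 control libraries, and 29191847 to 35456933 in DU145 knockdown and 21024352 to 43311727 in DU145 control libraries. Levels are given as CPM, the counts of a gene relative to the TMM-scaled library total of its line. EMD itself averaged 8.29 CPM in C4-2B knockdown and 69.9 CPM in C4-2B control libraries, 19.4 CPM in 22Rv1 knockdown and 65.3 CPM in 22Rv1 control libraries, and 4.80 CPM in DU145 knockdown and 44.5 CPM in DU145 control libraries. KLK3, which encodes prostate-specific antigen, averaged 951 CPM in C4-2B knockdown and 1509 CPM in C4-2B control libraries, 17.7 CPM in 22Rv1 knockdown and 20.03 CPM in 22Rv1 control libraries, and 0.466 CPM in DU145 knockdown and 0.528 CPM in DU145 control libraries. Of 5 luminal markers, 1 rose and 4 fell in C4-2B, against 19.4% of all tested genes that rose and 22.3% that fell. In 22Rv1, 0 rose and 2 fell, against 33.5% and 34.3% of genes. In DU145, 0 rose and 1 fell of 4 tested, against 24.1% and 23.6% of genes. HOXB13, a prostate lineage marker, had 1 read in all in DU145 knockdown and 0 reads in DU145 control libraries. Of 10 fibroblast, endothelial and blood cell markers, 3 were tested in C4-2B, 1 in 22Rv1 and 5 in DU145; their summed level was 14.4 to 15.7 CPM in C4-2B knockdown and 25.1 to 26.2 CPM in C4-2B control libraries, most of it VWF, and no library of the other lines reached 4 CPM.

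All 10 members passed the filter on low counts in 22Rv1 and DU145, and 9 did in C4-2B, where TUBB2B had 9, 0 and 0 reads in knockdown and 3, 0 and 3 reads in control libraries. A gene was called when its adjusted p from edgeR's quasi-likelihood test (Benjamini-Hochberg over all genes of the line) was under 0.05. In C4-2B, 6 members fell, 1 rose and 2 did not pass, against 22.3% of all 15801 tested genes that fell and 19.4% that rose. In 22Rv1, 7 rose and 3 fell, against 33.5% of 16656 genes that rose and 34.3% that fell. In DU145, 4 rose, 3 fell and 3 did not pass, against 24.1% of 19377 genes that rose and 23.6% that fell. All knockdown libraries lay below all controls for 6 members in C4-2B and above them for 0, against 26.0% and 24.5% of genes. They lay above for 7 and below for 3 in 22Rv1, against 35.1% and 35.9%, and above for 4 and below for 3 in DU145, against 28.2% and 26.6%. The median log2 fold change of the tested members was -0.84 in C4-2B, 0.21 in 22Rv1 and 0.08 in DU145, beside medians over all genes of 0.01, -0.00 and 0.01. Scaling by library totals, 3871 genes were called higher and 2922 lower in C4-2B, which puts 57.0% of its calls on the higher side against 46.6%; the 6 members stayed lower. With that scaling 5 members rose in 22Rv1, where TUBB3 and TUBB6 no longer passed, and 6 rose in DU145, where TUBA1B and TUBB4B were added; 3 fell in each.

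Together the 10 genes took 0.105%, 0.101% and 0.0994% of all reads in C4-2B knockdown libraries and 0.234%, 0.243% and 0.230% in C4-2B controls. They took 0.611%, 0.602% and 0.610% in 22Rv1 knockdown libraries and 0.499%, 0.512% and 0.491% in 22Rv1 controls. In DU145 the share was 0.602%, 0.607% and 0.585% in knockdown libraries and 0.601%, 0.617% and 0.606% in controls. The share thus lay below all controls in C4-2B, above them in 22Rv1, and overlapped them in DU145. In bulk RNA, fewer cells with a transcript and less of it per cell cannot be told apart. Of genes averaging at least 100 CPM, 39.5% fell and 25.3% rose in C4-2B, 24.6% fell and 55.2% rose in 22Rv1, and 32.7% fell and 36.1% rose in DU145. The split thus leaned toward falls in C4-2B and rises in 22Rv1 among abundant genes and was nearer to even in DU145, and the part of level in the members' directions was not tested.

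**Figure D1:**
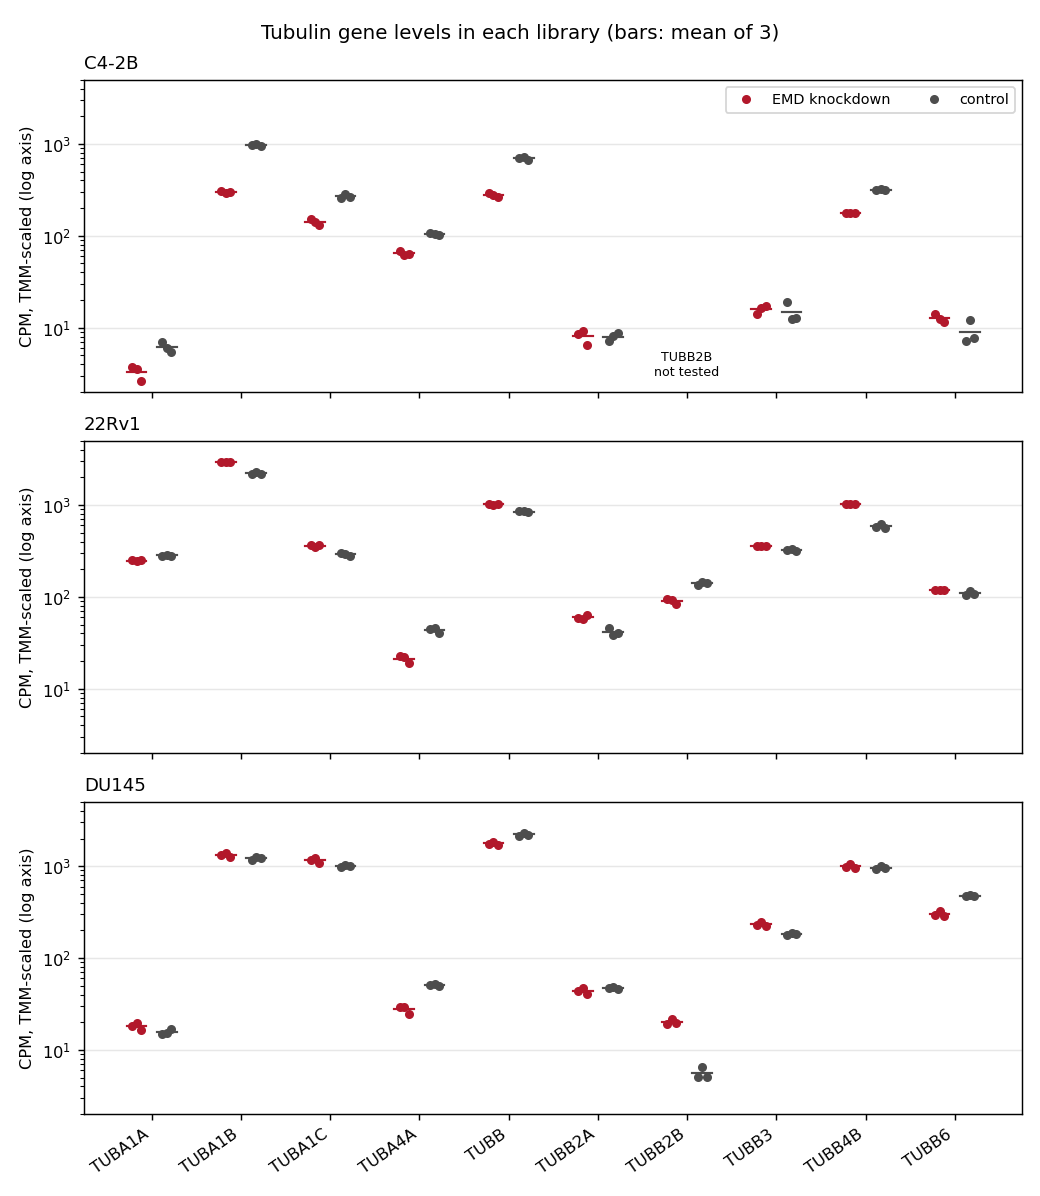
TMM-scaled CPM (log axis) of the 10 tubulin genes in each library, EMD knockdown in red at the left of control in grey, with bars at the mean of 3 libraries, in C4-2B, 22Rv1 and DU145 from top to bottom. In C4-2B the knockdown libraries of TUBA1B sit between 291 and 308 CPM and the controls between 952 and 997 CPM, while in 22Rv1 the knockdown libraries are the higher ones.

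TUBA1B (chr12:49127782-49131397, minus strand), the main alpha-tubulin of most dividing cells, had the largest fold change of the members tested in C4-2B. The values were 308, 291 and 300.4 CPM in the C4-2B knockdown libraries and 969, 997 and 952 CPM in the C4-2B control libraries. The groups did not overlap and every knockdown library lay below every control (log2 fold change -1.70 ± 0.04, adjusted p = 3.67e-21). It came to 2969, 2928 and 2962 CPM in the 22Rv1 knockdown libraries and 2202, 2264 and 2155 CPM in the 22Rv1 control libraries. In this line every knockdown library was the higher one (log2 fold change 0.42 ± 0.03, adjusted p = 5.11e-11). It stood at 1313, 1376 and 1264 CPM in the DU145 knockdown libraries and 1170, 1256 and 1230 CPM in the DU145 control libraries. The 3 DU145 knockdown libraries were above the 3 controls, but the difference missed the threshold (log2 fold change 0.11 ± 0.05, adjusted p = 0.0661). It passed in 8 of 13 alternatives, among them library totals (adjusted p = 0.000133) and the fit of all 18 libraries (0.00271). Leaving out control library 2 or 3 or knockdown library 1 or 3 gave a pass too. The 8 include the sum with TUBA1A and TUBA1C (0.0128), which does not test TUBA1B by itself. The adjusted p ranged from 0.000133 to 0.462.

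TUBA1C (chr12:49188736-49274603, plus strand), a second widely expressed alpha-tubulin, fell with TUBA1B in C4-2B and rose with it in 22Rv1. Its level was 152, 140.0 and 129 CPM in the C4-2B knockdown libraries and 260.1, 288 and 264 CPM in the C4-2B control libraries. The groups were apart, with the knockdown libraries lower (log2 fold change -0.95 ± 0.05, adjusted p = 7.05e-11). The values were 368, 352 and 363 CPM in the 22Rv1 knockdown libraries and 299.8, 292 and 281 CPM in the 22Rv1 control libraries. All knockdown libraries were higher here (log2 fold change 0.31 ± 0.04, adjusted p = 1.80e-07). Its reads came to 1165, 1233 and 1078 CPM in the DU145 knockdown libraries and 984, 1030 and 1000 CPM in the DU145 control libraries. TUBA1C rose in DU145 (log2 fold change 0.21 ± 0.05, adjusted p = 0.00157), though not without knockdown library 2 (adjusted p = 0.0878, range 3.98e-07 to 0.0878 over 13 alternatives).

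TUBA1A (chr12:49184796-49189324, minus strand), the alpha-tubulin of developing neurons, was a minor transcript in C4-2B and DU145. It stood at 3.71, 3.52 and 2.61 CPM in the C4-2B knockdown libraries and 7.01, 5.97 and 5.38 CPM in the C4-2B control libraries. All knockdown libraries were below all controls (log2 fold change -0.89 ± 0.21, adjusted p = 0.00122). Its level was 252, 244 and 251 CPM in the 22Rv1 knockdown libraries and 280.1, 287 and 282 CPM in the 22Rv1 control libraries. TUBA1A fell here, the opposite of TUBA1B in the same libraries (log2 fold change -0.18 ± 0.03, adjusted p = 7.98e-05). The values were 18.1, 19.8 and 16.6 CPM in the DU145 knockdown libraries and 15.1, 15.2 and 16.7 CPM in the DU145 control libraries. The DU145 groups overlapped, and its rise (log2 fold change 0.21 ± 0.07, adjusted p = 0.0206) was lost with DESeq2 (adjusted p = 0.110), without control library 1 or 2 (0.0699 and 0.0855) and without knockdown library 2 (0.219), with a range of 0.000570 to 0.219 over 13 alternatives. TUBA1A overlaps TUBA1C by 589 bases on the opposite strand; over 6 libraries TUBA1C had 22830 reads and TUBA1A 514 in C4-2B, and 213577 and 3334 in DU145, and the kit's strandedness is not given in the sources used here.

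When reads of TUBA1A, TUBA1B and TUBA1C were summed to 1 feature, the log2 fold change was -1.49 ± 0.04 in C4-2B, 0.36 ± 0.03 in 22Rv1 and 0.16 ± 0.05 in DU145 (edgeR adjusted p = 7.58e-20, 4.04e-10 and 0.0128). The sum fell in C4-2B and rose in the other lines.

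TUBA4A (chr2:219249711-219278170, minus strand), an alpha-tubulin encoded without the terminal tyrosine that other alpha-tubulins carry, was the 1 member that fell in all 3 lines. It was found at 68.8, 61.5 and 63.9 CPM in the C4-2B knockdown libraries and 107, 105 and 102 CPM in the C4-2B control libraries. The knockdown libraries were lower without overlap (log2 fold change -0.69 ± 0.05, adjusted p = 7.71e-11). It stood at 22.7, 22.0 and 19.2 CPM in the 22Rv1 knockdown libraries and 44.5, 45.9 and 40.7 CPM in the 22Rv1 control libraries. Every knockdown library again lay below every control (log2 fold change -1.03 ± 0.07, adjusted p = 2.13e-10). Its level was 29.5, 29.3 and 24.6 CPM in the DU145 knockdown libraries and 50.6, 51.6 and 49.9 CPM in the DU145 control libraries. The same separation was seen (log2 fold change -0.87 ± 0.06, adjusted p = 8.18e-12). TUBA4A kept its direction and its call in each alternative run within the 3 lines. It overlaps STK16 by 627 bases on the opposite strand. Raw STK16 reads summed to 1772 in knockdown and 2253 in control libraries of C4-2B. They summed to 1396 in knockdown and 2193 in control libraries of 22Rv1, and to 1427 in knockdown and 1311 in control libraries of DU145. These sums are not scaled to depth, which differed between libraries, so they give no direction of change for STK16.

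TUBB (chr6:30720201-30725426, plus strand), the main beta-tubulin of most dividing cells, differed in direction between lines. The values were 294, 279 and 267 CPM in the C4-2B knockdown libraries and 712, 715 and 669 CPM in the C4-2B control libraries. The knockdown libraries were lower without overlap (log2 fold change -1.32 ± 0.04, adjusted p = 1.37e-18). TUBA1B and TUBB were the 2 members at least 2-fold lower in C4-2B knockdown, a size reached downward by 3.72% of its tested genes; in 22Rv1 TUBA4A reached it downward, as did 14.7% of genes, and in DU145 TUBB2B upward, as did 3.70%. It came to 1023, 998 and 1029 CPM in the 22Rv1 knockdown libraries and 859, 852 and 837 CPM in the 22Rv1 control libraries. There the knockdown libraries were higher without overlap (log2 fold change 0.26 ± 0.03, adjusted p = 2.09e-07). It stood at 1758, 1848 and 1701 CPM in the DU145 knockdown libraries and 2158, 2305 and 2198 CPM in the DU145 control libraries. In DU145 TUBB fell (log2 fold change -0.33 ± 0.05, adjusted p = 3.38e-06), while the alpha-tubulins TUBA1A and TUBA1C rose in the same libraries. A pseudogene, TUBBP1, shares 131 of the 2571 stretches of 100 bases in the TUBB transcript.

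TUBB4B (chr9:137241213-137243707, plus strand), a widely expressed beta-tubulin that is also found in cilia, fell with TUBB in C4-2B and rose with it in 22Rv1. Its level was 175, 178 and 177 CPM in the C4-2B knockdown libraries and 312, 321 and 317 CPM in the C4-2B control libraries. All knockdown libraries lay lower (log2 fold change -0.84 ± 0.04, adjusted p = 1.65e-15). The values were 1027, 1015 and 1018 CPM in the 22Rv1 knockdown libraries and 581, 616 and 569 CPM in the 22Rv1 control libraries. This was the largest rise of a member in 22Rv1 by the fitted fold change, with the groups apart (log2 fold change 0.79 ± 0.03, adjusted p = 4.43e-14). Its reads came to 989, 1062 and 963 CPM in the DU145 knockdown libraries and 943, 1001 and 955 CPM in the DU145 control libraries. The DU145 groups overlapped and no change passed (log2 fold change 0.06 ± 0.05, adjusted p = 0.401); adjusted p = 0.00477 with library totals and 0.0290 without knockdown library 3, in a range of 0.00477 to 0.931 over 12 alternatives.

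TUBB6 (chr18:12307669-12344320, plus strand), a beta-tubulin whose overexpression in cultured cells can disrupt microtubules, was high in DU145 and low in C4-2B. It stood at 295, 322 and 288 CPM in the DU145 knockdown libraries and 471, 487 and 469.7 CPM in the DU145 control libraries. TUBB6 fell in this line without overlap (log2 fold change -0.66 ± 0.05, adjusted p = 1.15e-11). Its level was 14.0, 12.4 and 11.6 CPM in the C4-2B knockdown libraries and 7.08, 12.0 and 7.76 CPM in the C4-2B control libraries. The C4-2B groups overlapped, and the rise called there (log2 fold change 0.50 ± 0.17, adjusted p = 0.0210) was lost without control library 1 or 3 (adjusted p = 0.0918 and 0.123) and without knockdown library 1 or 2 (0.0930 and 0.0641), in a range of 0.000356 to 0.123 over 12 alternatives. The values were 120.3, 119 and 120.0 CPM in the 22Rv1 knockdown libraries and 105, 115 and 108 CPM in the 22Rv1 control libraries. The small rise in 22Rv1 (log2 fold change 0.14 ± 0.04, adjusted p = 0.00912) was lost with library totals (adjusted p = 0.252) and in the fit of all 18 libraries (0.286), in a range of 0.00178 to 0.286 over 12 alternatives. AFG3L2 lies on the opposite strand over 15377 bases of TUBB6 and had 15813 reads in C4-2B, where TUBB6 had 1148.

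TUBB3 (chr16:89921392-89938761, plus strand), the beta-tubulin used as a marker of neurons and studied in resistance to taxanes, rose in the 2 lines where it was abundant. It was found at 229, 247 and 225 CPM in the DU145 knockdown libraries and 178, 189 and 181 CPM in the DU145 control libraries. The groups were apart (log2 fold change 0.35 ± 0.05, adjusted p = 7.73e-07). It stood at 362, 358 and 358 CPM in the 22Rv1 knockdown libraries and 323, 335 and 314 CPM in the 22Rv1 control libraries. That rise was small (log2 fold change 0.15 ± 0.03, adjusted p = 0.000673) and was lost with library totals (adjusted p = 0.0728) and in the fit of all 18 libraries (0.169), in a range of 0.000261 to 0.169 over 12 alternatives. Its level was 14.0, 16.4 and 17.1 CPM in the C4-2B knockdown libraries and 18.8, 12.5 and 12.7 CPM in the C4-2B control libraries. The C4-2B groups overlapped (log2 fold change 0.13 ± 0.14, adjusted p = 0.508); without control library 1, the highest control, the adjusted p was 0.0453, in a range up to 0.918. A readthrough gene, AC092143.1, overlaps TUBB3 on its own strand and had 827 reads in knockdown and 528 in control libraries of DU145, beside 41177 of TUBB3.

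TUBB2B (chr6:3224261-3231730, minus strand), a neuronal beta-tubulin whose mutations disturb cortical development, showed opposite changes in the 2 lines where it was tested. The values were 19.0, 21.6 and 19.7 CPM in the DU145 knockdown libraries and 5.05, 6.47 and 5.10 CPM in the DU145 control libraries. The knockdown libraries were 3.56-fold higher on average, without overlap (log2 fold change 1.83 ± 0.09, adjusted p = 6.70e-15). It came to 94.9, 93.1 and 84.1 CPM in the 22Rv1 knockdown libraries and 136, 145 and 140.1 CPM in the 22Rv1 control libraries. In 22Rv1 all knockdown libraries were lower (log2 fold change -0.62 ± 0.05, adjusted p = 4.88e-10). Of 9 neuronal and neuroendocrine markers, 6 were tested in DU145, where 2 rose (NEFL and ENO2), 0 fell and 4 did not pass, against 24.1% of all genes that rose, and their summed level was 53.2 to 58.8 CPM in knockdown and 30.4 to 31.5 CPM in control libraries. NEFL, a neurofilament gene, made up most of that difference, at 22.2 CPM in knockdown and 2.94 CPM in control libraries. CHGA had 4 reads in all in knockdown and 9 in control libraries, and INSM1 had 2 in knockdown and 3 in control libraries. In C4-2B, 2 were tested and 0 passed. In 22Rv1, 8 were tested, 3 rose and 5 fell, against 33.5% of all genes that rose and 34.3% that fell. Their summed level there was 326 to 343 CPM in knockdown and 470 to 489 CPM in control libraries. ENO2, neuronal enolase, set that direction, at 109 CPM in knockdown and 334 CPM in control libraries, while the other abundant markers rose: CHGA, a granule protein, was at 105 CPM in knockdown and 47.1 CPM in control libraries, and CHGB and SYP rose as well. The other 4 that fell averaged under 4 CPM in either group. Their part in the TUBB2B result was not tested.

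TUBB2A (chr6:3153669-3157526, minus strand), the near-identical neighbour of TUBB2B, differed from it in direction in 22Rv1. It stood at 59.4, 57.6 and 64.1 CPM in the 22Rv1 knockdown libraries and 46.2, 38.1 and 40.5 CPM in the 22Rv1 control libraries. TUBB2A rose there (log2 fold change 0.53 ± 0.07, adjusted p = 9.76e-07), where TUBB2B fell. Its level was 43.7, 47.3 and 40.9 CPM in the DU145 knockdown libraries and 47.0, 48.1 and 45.7 CPM in the DU145 control libraries. The DU145 groups overlapped and no change passed (log2 fold change -0.10 ± 0.06, adjusted p = 0.178). The values were 8.49, 9.28 and 6.44 CPM in the C4-2B knockdown libraries and 7.14, 8.02 and 8.81 CPM in the C4-2B control libraries. The C4-2B groups overlapped as well (log2 fold change 0.01 ± 0.16, adjusted p = 0.972). The 2 genes summed gave a log2 fold change of -0.27 ± 0.04 in 22Rv1, 0.29 ± 0.06 in DU145 and 0.02 ± 0.16 in C4-2B (edgeR adjusted p = 2.37e-06, 8.64e-05 and 0.922), so in 22Rv1 the pair fell although TUBB2A by itself rose.

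**Figure D2:**
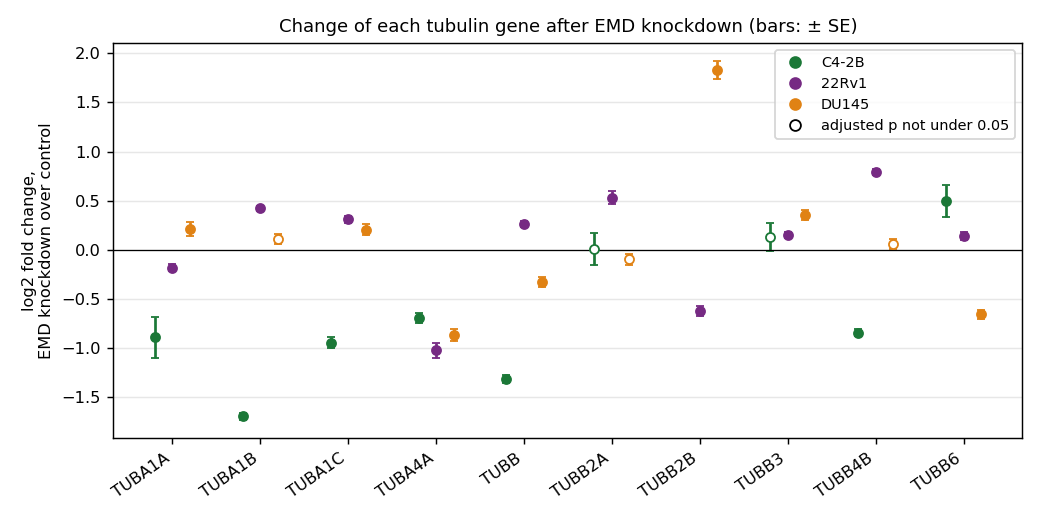
Log2 fold change of EMD knockdown over control for each tubulin gene (bars, ± SE) in C4-2B (green), 22Rv1 (purple) and DU145 (orange), filled where the edgeR adjusted p was under 0.05. TUBA4A lies below 0 in all 3 lines, and TUBA1B, TUBB and TUBB4B lie below -0.8 in C4-2B and above 0.2 in 22Rv1.

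The differences between lines were tested in a single fit of the 18 libraries, over 17152 genes that the 3 tables share and that passed its filter. The C4-2B response was below that of 22Rv1 for 6 members and above it for 2, against 27.0% and 29.1% of all genes. The differences were -2.07 ± 0.05 for TUBA1B, -1.59 ± 0.05 for TUBB4B, -1.53 ± 0.06 for TUBB and -1.21 ± 0.07 for TUBA1C on the log2 scale (edgeR adjusted p = 1.32e-25, 1.67e-22, 1.39e-21 and 3.16e-15). They were smaller for TUBA1A, at -0.64 ± 0.14, and TUBB2A, at -0.48 ± 0.15 (adjusted p = 0.000275 and 0.00580). TUBA4A and TUBB6 differed the other way, by 0.38 ± 0.10 and 0.40 ± 0.15 (adjusted p = 0.00107 and 0.0319), so TUBA4A fell less in C4-2B than in 22Rv1. The TUBB6 difference was lost when any 1 of 8 libraries was left out (C4-2B controls 1 and 3 and knockdowns 1 and 2, 22Rv1 controls 2 and 3 and knockdowns 2 and 3), with adjusted p = 0.135 without C4-2B control 3, in a range of 4.72e-06 to 0.135 over 17 alternatives.

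Against DU145, the C4-2B response was lower for 5 members and higher for 1, against 24.5% and 21.2% of all genes. TUBA1B differed by -1.82 ± 0.05, TUBA1C by -1.17 ± 0.07, TUBA1A by -1.10 ± 0.15, TUBB by -1.005 ± 0.05 and TUBB4B by -0.91 ± 0.05 (edgeR adjusted p at most 2.19e-07). TUBB6 was the exception, at 1.14 ± 0.15 (adjusted p = 3.62e-06). For TUBA4A the difference of 0.16 ± 0.09 did not pass (adjusted p = 0.147).

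The 22Rv1 response was above that of DU145 for 5 members and below it for 3, against 25.3% and 30.4% of all genes. It was higher for TUBB6 by 0.74 ± 0.10, TUBB4B by 0.68 ± 0.05, TUBB2A by 0.56 ± 0.11, TUBB by 0.53 ± 0.05 and TUBA1B by 0.25 ± 0.05 (edgeR adjusted p at most 8.03e-05). TUBB2B had the largest difference of the members, at -2.51 ± 0.17 (adjusted p = 7.34e-10), followed by TUBA1A at -0.45 ± 0.08 and TUBB3 at -0.26 ± 0.09 (adjusted p = 1.89e-05 and 0.0194). The TUBB3 difference missed the threshold with the replicate number as a block (0.0534), without DU145 control 1 (0.0605) and without DU145 knockdown 2 (0.0501), in a range of 0.00163 to 0.0605 over 17 alternatives. These comparisons share the libraries of each line, so they are not independent of each other.

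Levels in the control libraries describe the lines without EMD knockdown and were scaled together over all 18 libraries. Per the protocols the control cells had received scrambled siRNA, so these are not levels of untreated cells. TUBA1A was 6.04 ± 0.811 CPM in C4-2B, 283 ± 1.63 in 22Rv1 and 16.9 ± 1.07 in DU145 (SD, n = 3 each). TUBB3 was 14.5 ± 3.52, 323 ± 7.38 and 197 ± 8.24 CPM in C4-2B, 22Rv1 and DU145. TUBB6 ran in another order, at 8.83 ± 2.63, 109 ± 4.47 and 514 ± 15.2 CPM, and so did TUBA1C, at 267 ± 14.9, 291 ± 8.81 and 1086 ± 36.4 CPM. The levels of TUBA4A ran 103 ± 2.21, 43.6 ± 2.31 and 54.8 ± 1.33 CPM, the 1 member that was highest in C4-2B.

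C4-2B was below 22Rv1 for 9 members and above it for 1, against 40.1% and 38.3% of all genes, with a member median of -1.79 beside 0.00. TUBB2B apart, the steps down ran from -5.57 ± 0.07 for TUBA1A to -0.12 ± 0.05 for TUBA1C on the log2 scale. TUBB3 was at -4.52 ± 0.09 and TUBB6 at -3.62 ± 0.10, and TUBA4A was higher by 1.25 ± 0.06 (edgeR adjusted p at most 0.0226 for each). TUBA1C was the closest in level between these lines, and its difference was lost with DESeq2 (adjusted p = 0.0548) and without C4-2B control 1 or 3 or 22Rv1 control 1 (0.0989, 0.0907 and 0.0907), in a range of 0.00177 to 0.0989 over 18 alternatives. C4-2B was below DU145 for 9 members and above it for 1, against 41.6% of all genes in each direction, with a member median of -1.91 beside -0.01. TUBB6 differed by -5.86 ± 0.10, TUBB3 by -3.80 ± 0.09 and TUBA4A by 0.91 ± 0.06. TUBB2B is counted among the 9 lower members and in the median of each of these comparisons. Its C4-2B level rests on few reads, so no step is printed for it. It had 6 reads in all in C4-2B controls against 10720 in 22Rv1 controls and 549 in DU145 controls.

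22Rv1 was above DU145 for 4 members and below it for 6, against 42.8% and 41.1% of all genes, with a member median of -0.31 beside 0.02. It was higher for TUBB2B by 4.52 ± 0.13, TUBA1A by 4.06 ± 0.06, TUBA1B by 0.74 ± 0.04 and TUBB3 by 0.71 ± 0.07. It was lower for TUBB6 by -2.24 ± 0.07, TUBA1C by -1.90 ± 0.05, TUBB by -1.5 ± 0.04, TUBB4B by -0.83 ± 0.04, TUBA4A by -0.33 ± 0.06 and TUBB2A by -0.28 ± 0.08 (edgeR adjusted p at most 0.00106). Library totals in place of TMM move the median of all genes by 0.15 for C4-2B over DU145 and by 0.18 for 22Rv1 over DU145, and the TUBB2A difference was then lost (adjusted p = 0.202, range 3.66e-05 to 0.202 over 18 alternatives).

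**Figure D3:**
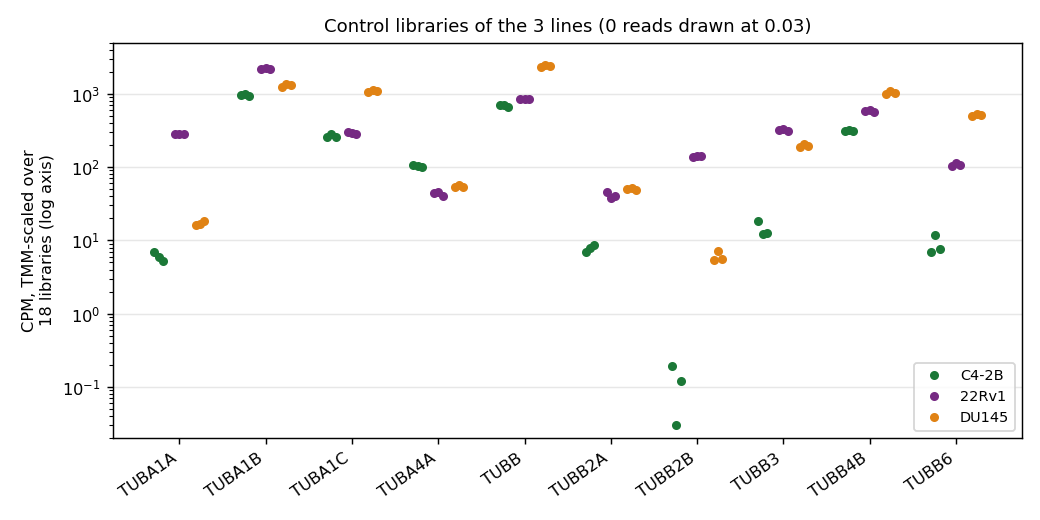
CPM of each tubulin gene in the 3 control libraries of C4-2B (green), 22Rv1 (purple) and DU145 (orange), TMM-scaled over 18 libraries, on a log axis with libraries of 0 reads drawn at 0.03. TUBA1A, TUBB2B and TUBB3 are highest in 22Rv1, TUBA1C, TUBB, TUBB4B and TUBB6 in DU145, and TUBA4A in C4-2B.

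Levels of different genes were compared per length of the principal transcript, each of 4 exons and 1595 to 3001 bases long, and without a test, since shares over the members are not tested. TUBA1B made up 70.2% ± 1.11 in C4-2B knockdown libraries and 80.8% ± 0.219 in C4-2B controls of the summed level of the alpha members (SD, n = 3 each). TUBA1C took 17.8% ± 0.976 in C4-2B knockdown libraries and 12.2% ± 0.412 in C4-2B controls, and TUBA4A 11.4% ± 0.243 in C4-2B knockdown libraries and 6.55% ± 0.163 in C4-2B controls. So the share of TUBA1B was lower after knockdown and those of TUBA1C and TUBA4A higher. The TUBA1B share was 87.5% ± 0.134 in 22Rv1 knockdown libraries and 83.7% ± 0.142 in 22Rv1 controls. It was 66.5% ± 0.615 in DU145 knockdown libraries and 67.1% ± 0.401 in DU145 controls, a difference of about the spread between libraries. The next alpha gene in DU145 was TUBA1C, with 31.7% ± 0.536 in DU145 knockdown libraries and 30.02% ± 0.354 in DU145 controls.

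Among the beta genes, TUBB held 45.0% ± 1.203 in C4-2B knockdown libraries and 55.3% ± 0.846 in C4-2B controls, and TUBB4B 46.3% ± 1.19 in C4-2B knockdown libraries and 41.0% ± 1.00 in C4-2B controls. Per length, the 2 genes were thus within 1 SD or so of each other in the knockdown libraries, whereas TUBB was ahead in controls. By reads TUBB was ahead in C4-2B knockdown libraries too, at 56.7% against 35.8%. The TUBB4B share was 46.2% ± 0.178 in 22Rv1 knockdown libraries and 35.6% ± 0.578 in 22Rv1 controls, with TUBB at 28.3% ± 0.301 in 22Rv1 knockdown libraries and 31.5% ± 0.641 in 22Rv1 controls and TUBB3 at 15.1% ± 0.0710 in 22Rv1 knockdown libraries and 18.1% ± 0.150 in 22Rv1 controls. Per length, TUBB4B was thus the leading beta gene of 22Rv1 in both groups. By reads without regard to length, TUBB led in 22Rv1 controls, at 41.4% against 28.7% for TUBB4B. The shares of reads were 38.1% and 38.2% in 22Rv1 knockdown libraries, so the order rests on the lengths used. The third line showed TUBB at 41.6% ± 0.308 in DU145 knockdown libraries and 46.5% ± 0.176 in DU145 controls, TUBB4B at 38.5% ± 0.136 in DU145 knockdown libraries and 33.0% ± 0.00630 in DU145 controls and TUBB6 at 9.18% ± 0.105 in DU145 knockdown libraries and 12.9% ± 0.163 in DU145 controls. In each line the share of TUBB was lower and that of TUBB4B higher in knockdown libraries, by more than the SD of either group.

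Summed per length, alpha over beta was 1.13 ± 0.03 in C4-2B knockdown libraries and 1.56 ± 0.02 in C4-2B controls, 1.54 ± 0.00247 in 22Rv1 knockdown libraries and 1.61 ± 0.00431 in 22Rv1 controls, and 0.765 ± 0.00920 in DU145 knockdown libraries and 0.624 ± 0.00916 in DU145 controls (SD, n = 3 each). The ratio was lower after knockdown in C4-2B and 22Rv1 and higher in DU145. It rests on 1 annotated transcript per gene, so its absolute level would change with another isoform.

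**Figure D4:**
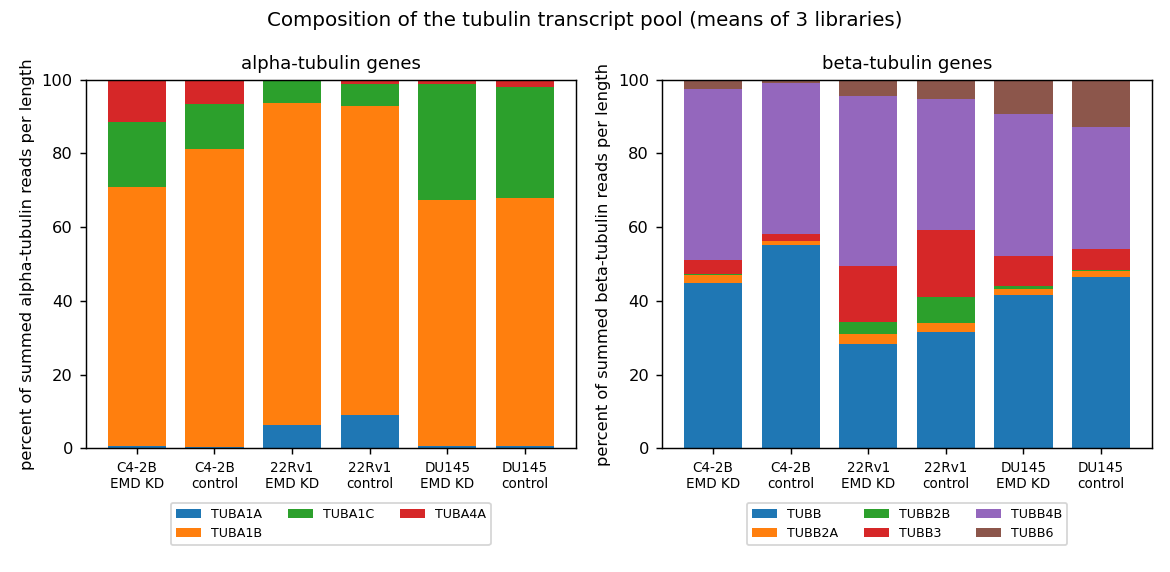
Share of each gene in the summed alpha-tubulin level (left) and beta-tubulin level (right), in percent of reads per transcript length, as means of 3 libraries with EMD knockdown (KD) left of control in each line. TUBA1B takes 70.2% in C4-2B knockdown libraries and 80.8% in C4-2B controls, and TUBA1A takes over 1% only in 22Rv1.

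Other genes of the tubulin system were counted by list, to be read beside the shares of all genes, of which 19.4% rose and 22.3% fell in C4-2B, 33.5% rose and 34.3% fell in 22Rv1, and 24.1% rose and 23.6% fell in DU145. The 14 genes of the CCT chaperonin and prefoldin, which fold tubulin, gave 1 rise and 12 falls in C4-2B, 7 rises and 3 falls in 22Rv1, and 7 rises and 1 fall in DU145, with medians of -0.29, 0.20 and 0.17. The falls in C4-2B and the rises in 22Rv1 and DU145 lay above the shares of all genes, and the counts in the other direction below them. Many genes of this list are abundant, and among genes averaging at least 100 CPM 39.5% fell in C4-2B, while 55.2% rose in 22Rv1 and 36.1% in DU145. The 7 rises of 14 in 22Rv1 were not above that share, and the part of level was not tested. CCT6A, a chaperonin subunit, averaged 275 ± 15.1 CPM in C4-2B knockdown libraries and 366 ± 0.953 CPM in C4-2B controls (log2 fold change -0.41 ± 0.04), and 626 ± 9.37 CPM in 22Rv1 knockdown libraries and 407 ± 20.1 CPM in 22Rv1 controls (log2 fold change 0.62 ± 0.04; edgeR adjusted p = 5.90e-09 and 8.96e-12). CCT8, another subunit, and VBP1, a prefoldin subunit, fell in C4-2B by 0.53 and 0.58 on the log2 scale. PFDN4, a prefoldin subunit, went the other way from CCT6A in 22Rv1, where it fell by 0.98.

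Microtubule destabilisers and severing enzymes gave 0 rises and 6 falls of 10 tested in C4-2B, 7 rises and 3 falls of 11 in 22Rv1, and 5 rises and 1 fall of 11 in DU145, with medians of -0.38, 0.29 and 0.13. Here too the falls in C4-2B and the rises in 22Rv1 and DU145 lay above the shares of all genes, and the opposite counts below them. KIF2C, a kinesin that depolymerises microtubule ends in mitosis, averaged 9.60 ± 1.37 CPM in C4-2B knockdown libraries and 49.4 ± 2.13 CPM in C4-2B controls (log2 fold change -2.36 ± 0.10, edgeR adjusted p = 3.05e-16). It rose in 22Rv1 (log2 fold change 0.41 ± 0.05, adjusted p = 1.55e-07). STMN1, stathmin, which sequesters tubulin dimers, averaged 42.4 ± 3.23 CPM in C4-2B knockdown libraries and 132 ± 3.78 CPM in C4-2B controls (log2 fold change -1.64 ± 0.06, adjusted p = 1.38e-17). It rose in 22Rv1 (log2 fold change 0.32 ± 0.04, adjusted p = 1.37e-07). KIF18A, a mitotic kinesin, fell in C4-2B (log2 fold change -2.18 ± 0.21) and rose in 22Rv1 (log2 fold change 1.3 ± 0.10). KATNAL1, a severing enzyme of the katanin family, fell in 22Rv1 by 0.99, and in C4-2B and DU145 by 0.31 and 0.29.

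The 14 stabilisers and plus-end proteins were split, with 2 rises and 4 falls in C4-2B, 5 and 4 in 22Rv1, and 4 and 6 in DU145. MAPT, tau, rose in DU145, at 16.2 ± 1.87 CPM in DU145 knockdown libraries and 6.55 ± 0.585 CPM in DU145 controls (log2 fold change 1.29 ± 0.09), and fell in 22Rv1 (log2 fold change -0.58 ± 0.05). MAP1B, a neuronal microtubule-associated protein, fell in DU145, at 127 ± 3.47 CPM in DU145 knockdown libraries and 241 ± 16.2 CPM in DU145 controls (log2 fold change -0.92 ± 0.05). MAP1B fell in C4-2B and 22Rv1 too, by 0.32 and 0.71. MAPRE3, an end-binding protein, fell in 22Rv1 by 1.5, and CLASP2, which stabilises plus ends, rose there by 1.05 on the log2 scale.

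The autoregulation genes TTC5, SCAPER and CNOT11 gave 0 calls of 3 in C4-2B, where most members fell: TTC5 averaged 21.2 ± 1.47 CPM in C4-2B knockdown libraries and 20.8 ± 1.25 CPM in C4-2B controls (log2 fold change 0.03 ± 0.09, edgeR adjusted p = 0.836), and SCAPER 21.6 ± 2.13 CPM in C4-2B knockdown libraries and 24.4 ± 2.50 CPM in C4-2B controls (log2 fold change -0.17 ± 0.10, adjusted p = 0.172). In 22Rv1 2 of the 3 fell and in DU145 1 rose and 1 fell. SCAPER fell in DU145 by 0.48 and TTC5 rose there by 0.22 on the log2 scale.

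The nucleating gamma-tubulin ring complex gave 3 rises and 3 falls of 9 in C4-2B, 4 and 4 in 22Rv1, and 2 and 3 in DU145; MZT1 and NEDD1 fell in C4-2B by 0.60 and 0.41, TUBGCP5 rose in 22Rv1 by 0.82 and MZT2A fell there by 0.49. Of gamma-, delta- and epsilon-tubulin, 2 of 4 genes fell in C4-2B, 2 rose and 2 fell in 22Rv1, and 2 rose and 1 fell in DU145. TUBG1, the main gamma-tubulin, averaged 71.1 ± 6.89 CPM in C4-2B knockdown libraries and 133 ± 4.33 CPM in C4-2B controls (log2 fold change -0.91 ± 0.06, edgeR adjusted p = 5.80e-12). TUBE1 and TUBG2 fell in 22Rv1 by 1.15 and 0.85, and TUBD1 rose in DU145 by 0.90. Opposite calls were seen in DU145 for TUBE1, which rose by 0.31, and for NEDD1, which rose by 0.14.

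The tubulin folding cofactors gave 2 rises and 2 falls of 7 in C4-2B, 3 and 3 in 22Rv1, and 1 and 3 in DU145. TBCC and TBCB rose in 22Rv1 by 0.50 and 0.47, and TBCEL fell in DU145 by 0.66. ARL2 rose in C4-2B by 0.43 and fell in 22Rv1 by 0.26 (edgeR adjusted p = 0.000121 in 22Rv1). The tubulin modifying enzymes, 17 tested in each line, gave 5 rises and 1 fall in C4-2B, 5 and 9 in 22Rv1, and 3 and 6 in DU145. AGBL5, which removes glutamate from tubulin tails, and VASH2, which removes the terminal tyrosine, fell in 22Rv1 by 1.01 and 0.74. SIRT2, a tubulin deacetylase, fell in DU145 by 0.82. In the opposite direction, SIRT2 rose in 22Rv1 by 0.37 and AGBL5 rose in DU145 by 0.23 (edgeR adjusted p = 4.94e-06 and 0.000276). TTLL6, a polyglutamylase, averaged 0.956 ± 0.391 CPM in 22Rv1 knockdown libraries and 4.78 ± 0.513 CPM in 22Rv1 controls. Of the other alpha- and beta-tubulin genes, 1 rose and 2 fell of 4 tested in C4-2B, 0 rose and 3 fell of 5 in 22Rv1, and 1 rose and 2 fell of 5 in DU145. TUBA8 averaged 3.08 ± 0.616 CPM in DU145 knockdown libraries and 0.500 ± 0.0870 CPM in DU145 controls (log2 fold change 2.58 ± 0.26). TUBA3D averaged 0.0670 ± 0.0122 CPM in 22Rv1 knockdown libraries and 2.08 ± 0.695 CPM in 22Rv1 controls. TUBA3E fell by 0.61 in C4-2B. TUBB4A fell by 0.53 in DU145 and 0.35 in 22Rv1. It rose in C4-2B at a low level, at 1.23 CPM in knockdown and 0.373 CPM in control libraries (log2 fold change 1.66 ± 0.53, edgeR adjusted p = 0.0135). TUBA3D was more abundant in C4-2B, at 37.2 CPM in knockdown and 57.5 CPM in control libraries (log2 fold change -0.63 ± 0.06, edgeR adjusted p = 1.46e-08). It is not a member and was left out of the alpha shares.

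**Figure D5:**
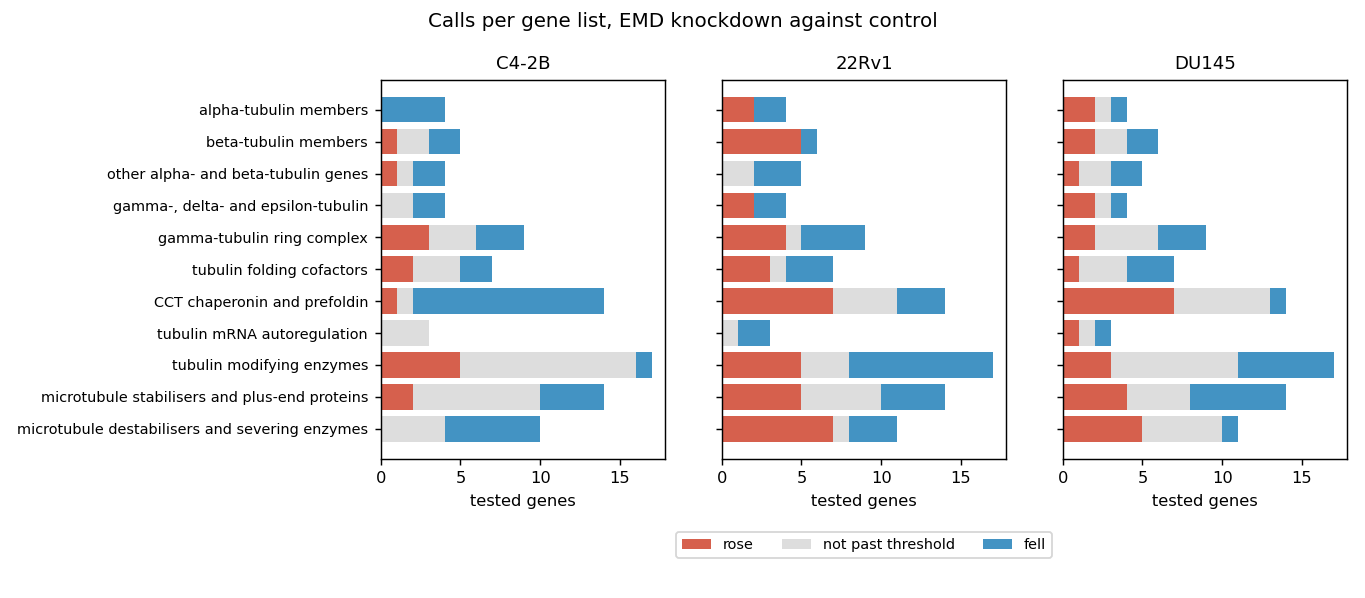
Number of tested genes in each list that rose (red), did not pass the threshold (grey) or fell (blue) in EMD knockdown against control, by edgeR adjusted p under 0.05, in C4-2B, 22Rv1 and DU145. Of the chaperonin and prefoldin genes, 12 of 14 fell in C4-2B and 3 of 14 in 22Rv1.

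The genes whose 3 knockdown responses lay nearest to those of TUBA1B, among 8265 genes averaging at least 10 CPM in each line, were FANCD2, a DNA repair gene, at a distance of 0.09 on the log2 scale, ARL2BP at 0.12 and STMN1 at 0.12. FANCD2 had log2 fold changes of -1.66, 0.46 and 0.04 in C4-2B, 22Rv1 and DU145, beside -1.70, 0.42 and 0.11 for TUBA1B. For TUBB the nearest were CENPM, a centromere protein gene, at 0.24, and RRM1 and TYMS, which make deoxynucleotides, at 0.25 each. These distances rest on 3 log2 fold changes from 18 libraries and are a description.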

How the data were processed

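Total RNA of 18 libraries was sequenced. The deposited tables hold expected counts for each gene as whole numbers. The submitters' processing notes name STAR, RSEM 1.3.1 and the build GRCh38. The annotation release, strandedness and rounding step are not given in the sources used here. The DU145 table held 92 spike-in entries and 30 second copies of pseudoautosomal genes, which were left out; 0 per-sample columns were left unused. The tables of C4-2B and 22Rv1 hold fewer genes than that of DU145, and a missing gene was not tested.

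Within each line, genes passing filterByExpr (minimum count 10, minimum total 15) were TMM-scaled and tested in edgeR 4.0.16 (R 4.3.3) with the robust quasi-likelihood F test, knockdown over control, with Benjamini-Hochberg adjustment over the line's genes and a threshold of 0.05. All adjusted p-values come from this test unless another is named; standard errors were computed as the fold change divided by the root of F. Differences between lines and control levels came from 1 fit of 18 libraries. Fits were tested on simulated data. Alternatives were DESeq2 1.42.0, its size factors, library totals, no filter, a replicate block, all libraries, summed copies and leaving out each library. Library pairs of a group differed beyond counting noise, with a chi-square per degree of freedom of 2.31 to 8.40. More reads give less counting error, but precision did not follow depth across lines. The SE of the TUBA1B fold change was 0.05 in DU145, 0.04 in C4-2B and 0.03 in 22Rv1.

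The 10 members and all gene lists were chosen with earlier results of these data known. In each other list, up to 4 genes past the threshold were named by largest fold change at 1 CPM or more. A gene named in 1 line may also have changed in another, in either direction. Neighbours of TUBA1B and TUBB were named by distance. Transcripts, lengths and gene positions are from GENCODE 29 (GRCh38), promoters from RefSeq. Some marker genes and sequences are not reported here.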

Additional observations from a re-analysis of the deposited data

Results flagged for a closer look

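The knockdown response of each of the 10 members differed between at least 1 pair of lines by the test of the difference itself (edgeR quasi-likelihood test over 18 libraries, adjusted p under 0.05), in 22 comparisons. Such differences were common: of all 17152 genes, 29.1% were higher and 27.0% lower for C4-2B less 22Rv1. The shares were 21.2% and 24.5% for C4-2B less DU145, and 25.3% and 30.4% for 22Rv1 less DU145. TUBA4A fell less in C4-2B than in 22Rv1, by 0.38 on the log2 scale.

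Between C4-2B and 22Rv1 the differences in log2 fold change were -2.07 for TUBA1B, -1.59 for TUBB4B, -1.53 for TUBB, -1.21 for TUBA1C, -0.64 for TUBA1A, -0.48 for TUBB2A and 0.40 for TUBB6. Between C4-2B and DU145 they were -1.82 for TUBA1B, -1.17 for TUBA1C, -1.10 for TUBA1A, -1.005 for TUBB, -0.91 for TUBB4B and 1.14 for TUBB6. Between 22Rv1 and DU145 they were -2.51 for TUBB2B, 0.74 for TUBB6, 0.68 for TUBB4B, 0.56 for TUBB2A, 0.53 for TUBB, -0.45 for TUBA1A, -0.26 for TUBB3 and 0.25 for TUBA1B. Line, batch label and table coincide, and the part of each in these differences cannot be told apart.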

How the results depend on the processing

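Under the alternatives, 1350 values of single genes kept their direction and side of the threshold, 30 lost the call, 19 gained it and 13 changed sign. Sign changes without a library concerned TUBB2A in C4-2B (-0.11 to 0.15), the C4-2B less 22Rv1 responses of TUBB3 (-0.057 to 0.22) and TUBB2B (-3.69 to 2.12), and the C4-2B less DU145 response of TUBB2A (-0.046 to 0.22). The others were TUBB2A in C4-2B with the replicate block (-0.00073) and the 22Rv1 less DU145 response of TUBA1C with library totals (-0.023); none of these values passed the threshold except TUBB3 without C4-2B control 1. The cause was not tested. Summing near-identical copies gives TUBA1A the sign of its set in 22Rv1 (0.36) and TUBB2A that of its pair in 22Rv1 (-0.27) and DU145 (0.29), by construction. In the same way it gives TUBA1B the call of its set in DU145. Leaving out 1 library, 0 to 1 members rose in C4-2B, 2 to 6 in DU145 (2 without knockdown 2, 6 without knockdown 3), and 1 to 2 were higher in the C4-2B less 22Rv1 response. By CPM in place of values per length, TUBA1B took 59.0% of alpha reads in C4-2B knockdown and 71.8% in control libraries, 82.4% in 22Rv1 knockdown and 78.1% in control, and 52.3% in DU145 knockdown and 53.2% in control libraries. TUBB took 56.7% of beta reads in C4-2B knockdown and 66.7% in control, 38.1% in 22Rv1 knockdown and 41.4% in control, and 52.5% in DU145 knockdown and 57.0% in control libraries. Same-numbered knockdown and control libraries had deviations correlated at -0.01 to 0.03 in C4-2B, -0.05 to 0.02 in 22Rv1 and 0.03 to 0.31 in DU145. Differently numbered pairs in DU145 ran from -0.26 to 0.17, so some pairing by number in that line is not excluded. The main fits did not pair samples because the labels do not say that a number marks a shared batch. With the replicate block TUBA1B passed in DU145 (adjusted p = 0.00932). TUBB2B had 15 reads in 6 C4-2B libraries, too few for a test there.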
